A study of Mus musculus with 5 samples.

Results

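Imprinted genes are the subject here: 40 mouse genes at 18 chromosomal loci, out of 24594 genes measured. They were chosen by gene symbol from a list of known imprinted genes and their locus neighbours, all 40 symbols were found, and 39 had a mean normalised read count of at least 10 and were tested. The list was drawn up with results of the comparison below already known, so the fold changes and counts of calls are a description and serve as no independent evidence about imprinted genes. Messenger RNA was sequenced from mouse retinal cells. Newborn pups (postnatal day 0) received plasmids by in vivo electroporation, and retinas were collected 4 days later and sorted for GFP. The 2 control libraries come from cells given CAG-GFP, and the 3 libraries labelled Zfp292-OE (overexpression) from cells given CAG-Zfp292. CAG is a strong, ubiquitously active promoter, so cell types other than the labelled retinal progenitors can express the plasmid too. The labels give no mouse strain and are silent on whether each library is a different animal or litter. The p-values therefore reflect library-to-library spread alone, which may be technical.

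In an imprinted gene, one parental allele is silenced by DNA methylation set in the egg or sperm. Imprinted genes lie in clusters, where a control region often switches a long noncoding RNA and its protein-coding neighbours in opposite directions on the 2 parental chromosomes, and many of them act on growth, placenta and brain. In the developing retina, Plagl1 and Cdkn1c are known for restraining proliferation. The data count reads per gene and not per allele, so they say nothing about which parental copy was read. Strand was not given for the counting, so genes that overlap on opposite strands, such as Igf2r with Airn, Kcnq1 with Kcnq1ot1, Meg3 with Rtl1, Mest with Copg2, Nnat with Blcap, Gnas with Gnasas1 and Ube3a with Snhg14, cannot be told apart where they overlap.

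Recovered reads per library ranged from 103096224 to 137683716, and every value below is the authors' normalised read count unless said otherwise. Libraries are listed in the order control 1 and 2, then Zfp292-OE 1, 2 and 3. Zfp292 itself had 13288 and 14756 in the controls and 14631, 13197 and 15534 in the libraries labelled Zfp292-OE, a log2 fold change of 0.04 (SE 0.14, limma adjusted p = 0.867), and the libraries are named by their labels throughout. Of the 16316 tested genes, 1632 passed as higher in the group labelled Zfp292-OE and 1204 as lower, and the median over every tested gene was -0.06 on the log2 scale.

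Promoter windows are printed for Meg3 and Plagl1, which had the smallest p among the genes that fell and that rose, and for Peg3, whose start lies beside that of Usp29, which fell. Each runs from 250 bases before to 50 after the annotated start, read on the gene's own strand from RefSeq for GRCm38.p6. In Meg3 (chr12:109540746-109541045, plus strand) and Plagl1 (chr10:13090582-13090881, plus strand), capitals mark TGCCGC or its reverse complement GCGGCA, the hexamer bound by ZFP57, a zinc finger protein that protects imprints. In Peg3 (chr7:6730370-6730669, minus strand), capitals mark the 263 bases shared with the window of Usp29 (chr7:6730333-6730632, plus strand).
Meg3: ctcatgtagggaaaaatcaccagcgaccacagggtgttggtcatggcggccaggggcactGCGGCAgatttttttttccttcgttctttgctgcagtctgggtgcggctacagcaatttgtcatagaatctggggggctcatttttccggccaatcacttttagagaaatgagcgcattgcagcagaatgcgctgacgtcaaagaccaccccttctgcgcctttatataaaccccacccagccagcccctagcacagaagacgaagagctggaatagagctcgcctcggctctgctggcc
Plagl1: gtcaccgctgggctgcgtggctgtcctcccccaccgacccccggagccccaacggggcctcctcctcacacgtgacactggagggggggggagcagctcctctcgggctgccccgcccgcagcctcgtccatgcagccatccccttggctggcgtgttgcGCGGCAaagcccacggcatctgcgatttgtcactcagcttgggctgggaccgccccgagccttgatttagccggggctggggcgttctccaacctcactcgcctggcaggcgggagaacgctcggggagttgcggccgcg
Peg3: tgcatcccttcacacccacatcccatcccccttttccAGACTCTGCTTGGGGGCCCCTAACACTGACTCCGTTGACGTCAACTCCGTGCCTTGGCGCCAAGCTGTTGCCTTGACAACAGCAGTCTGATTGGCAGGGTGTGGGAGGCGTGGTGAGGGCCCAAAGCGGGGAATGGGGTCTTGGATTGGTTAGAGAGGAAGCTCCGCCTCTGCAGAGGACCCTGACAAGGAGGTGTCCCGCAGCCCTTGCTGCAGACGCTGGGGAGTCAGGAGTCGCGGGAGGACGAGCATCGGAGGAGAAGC

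RefSeq windows were matched for 32 of the 40 genes, 51 windows in all. The hexamer, searched on both strands, was present in 12 of the 51 (23.5%), belonging to 11 genes, against 11.6% of all 32851 promoter windows of the same length. The 12 include the windows of Mest that start at 30737800 and 30737803 and overlap almost wholly. The hexamer holds a CG pair, and the windows were not matched for their number of CG pairs (median 7 over all windows). Nothing is read from the difference in shares. A match is a description of the letters and not a binding site. Other windows that hold it belong to Zdbf2, Nnat, Mest, Copg2, Nap1l5, Zim1, Snrpn, Igf2 and Grb10.

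Against the controls, 3 of the 39 tested genes rose (Plagl1, Sgce and Asb4) and 6 fell (Meg3, Dlk1, Igf2, Usp29, Kcnq1ot1 and Peg13) at a limma adjusted p below 0.05, and 30 did not pass. Of all tested genes 10% were called higher and 7.38% lower, against 7.69% and 15.4% of the imprinted genes, and nothing is read from that since the list was made with this comparison known. The median log2 fold change of the 39 was -0.37. In 20 of the 39 the 2 groups did not overlap, 5 higher and 15 lower, which is 51.3% beside 49.9% of all tested genes. Among all 16316 tested genes 3959 were higher and 4187 lower without overlap, and nothing is read from the split for the same reason. Of the 7 noncoding RNAs, 3 fell and all 7 had negative log2 fold changes (median -0.87), beside 28 of the 39 imprinted genes and 8702 of the 16316 tested genes. Meg3, Rian and Mirg are described below as 1 continuing transcript, so the 7 are not separate cases. Airn turned positive with quantile normalization (0.10), with a replicate block or without Zfp292-OE 3 (0.05 in both), and H19 did so without control 2 (0.57). The 32 coding genes had 3 higher and 3 lower (median -0.29). By the allele that textbooks give as active, the 21 paternally expressed genes had 2 higher and 5 lower (median -0.45), and the 9 maternally expressed genes 1 and 1 (median -0.98). Of the 9 tested genes with tissue-dependent imprinting 0 passed in limma on the deposited scaling or in edgeR (median -0.20). DESeq2 and limma with equal totals called 2 lower, Blcap and Trappc9, limma with quantile normalization called Blcap, and 4 had an unadjusted limma p below 0.05.

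**Figure D1:**
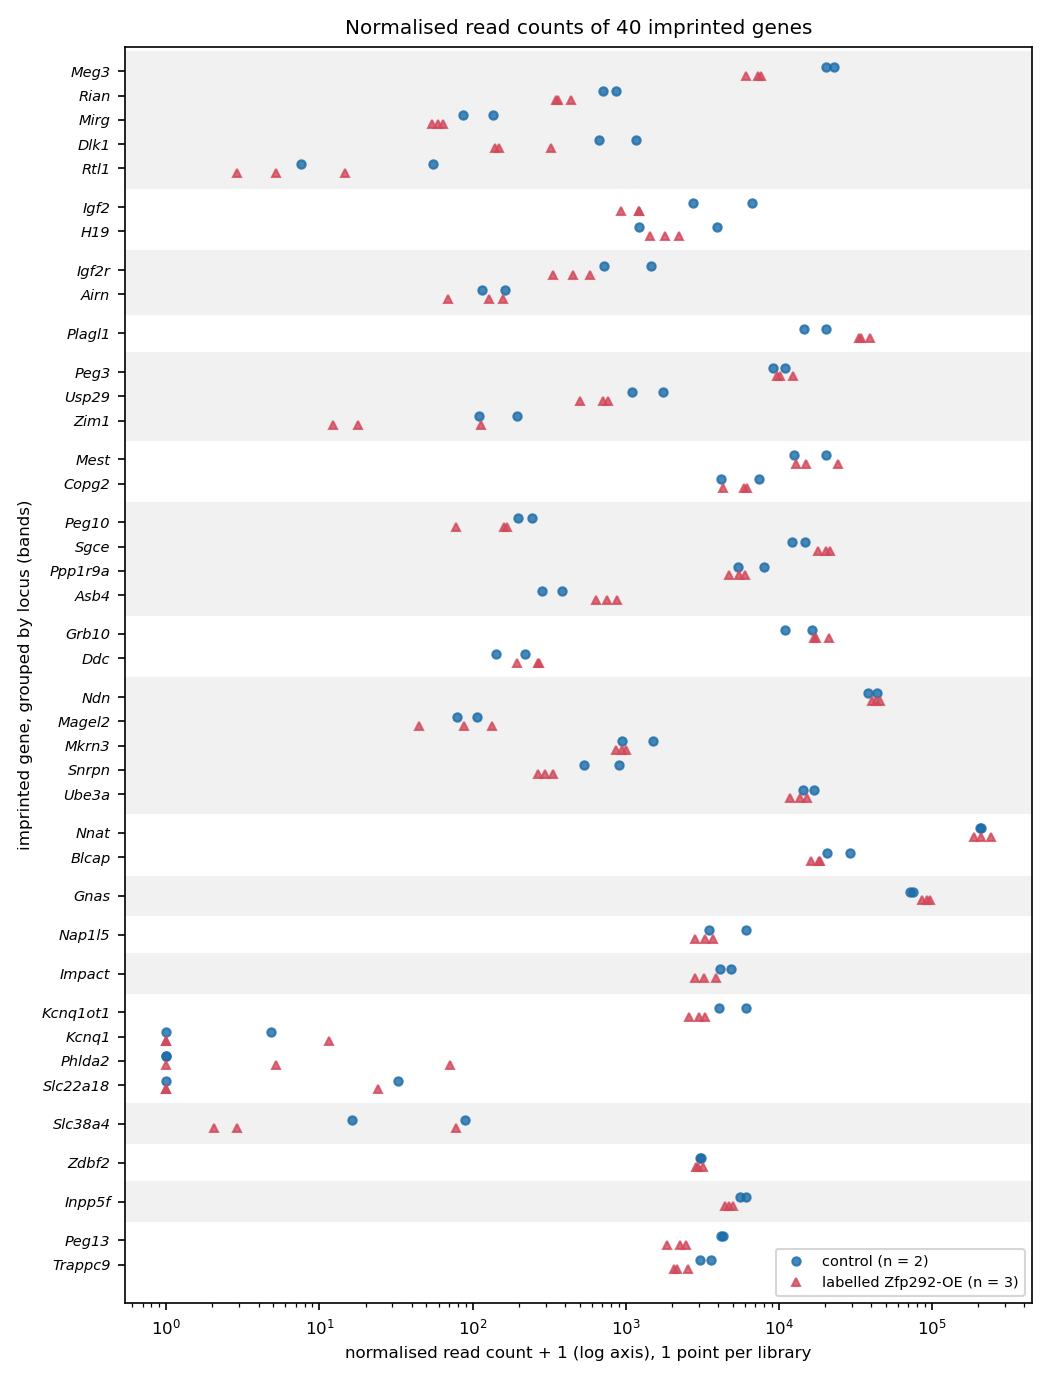
Normalised read count plus 1 on a log axis for each of the 40 imprinted genes, 1 point per library (control circles, Zfp292-OE triangles), with bands marking loci. Levels run from Nnat at the top down to Kcnq1, and the Meg3 and Plagl1 groups are separate in opposite directions.

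**Figure D2:**
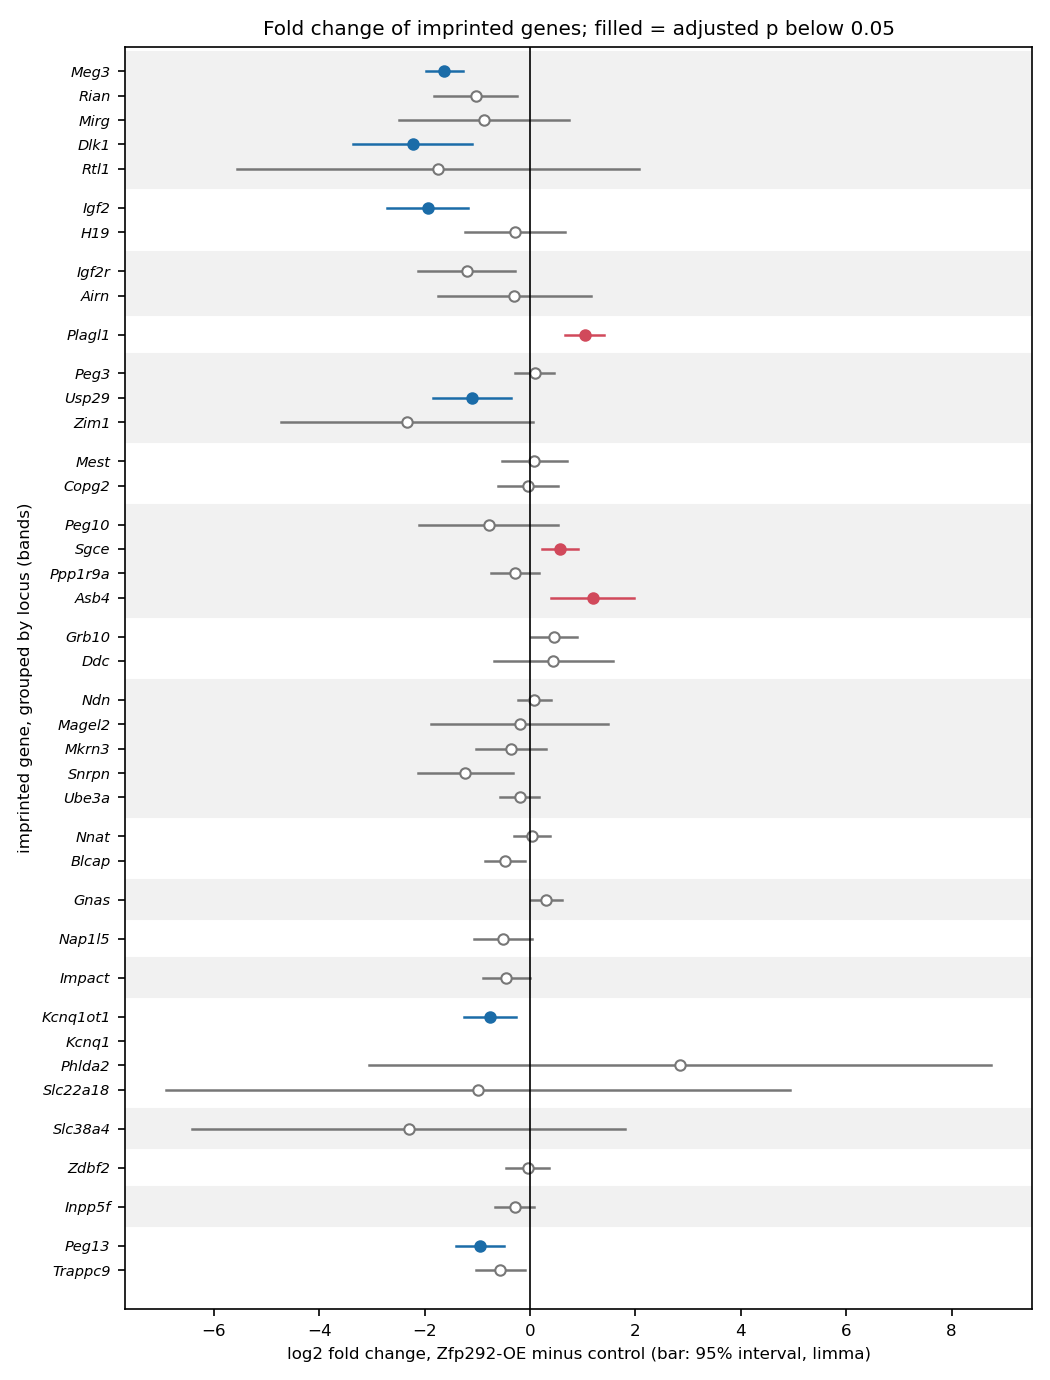
Log2 fold change of the 39 tested genes, libraries labelled Zfp292-OE minus control, with 95% limma intervals and filled points for an adjusted p below 0.05. The 6 filled points left of 0 are Meg3, Dlk1, Igf2, Usp29, Kcnq1ot1 and Peg13, and the 3 to the right are Plagl1, Sgce and Asb4.

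The Dlk1-Meg3 locus on chromosome 12 held 2 of the 6 genes that fell. Meg3 (chromosome 12, 109540996 to 109571729), a maternally expressed long noncoding RNA, had 20357 and 23061 in the controls and 7282, 6150 and 7665 in the libraries labelled Zfp292-OE. Every library labelled Zfp292-OE lay far below both controls, 3.09-fold lower by the means (log2 fold change -1.63, SE 0.16, limma adjusted p = 0.000398). Its log2 fold change was -1.72 without control 1 and -1.54 without control 2. With either control left out the call was lost, as were nearly all calls in the data, so that loss is not particular to Meg3. Dlk1 (chromosome 12, 109452485 to 109463336), a paternally expressed transmembrane ligand related to the Notch ligands and a marker of immature cells, had 1172 and 672 in the controls and 148, 139 and 326 in the libraries labelled Zfp292-OE. The groups did not overlap, and the mean was 4.50-fold lower (log2 fold change -2.23, SE 0.51, limma adjusted p = 0.0167). For Dlk1 the values were -1.82 without control 1 and -2.63 without control 2 (limma adjusted p = 0.184 and 0.152).

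Rian and Mirg, which continue the maternal transcript of Meg3 and host small nucleolar RNAs and microRNAs, lay below either control in each library labelled Zfp292-OE without passing the test. Rian had 706 and 859 in the controls and 438, 349.6 and 361 in the libraries labelled Zfp292-OE (log2 fold change -1.03, 95% interval -1.81 to -0.25, limma adjusted p = 0.0704). Mirg had 135 and 85.5 in the controls and 53.6, 63.0 and 58.6 in the libraries labelled Zfp292-OE (log2 fold change -0.87, 95% interval -2.48 to 0.73, limma adjusted p = 0.432). Rtl1, a retrotransposon-derived placental gene antisense to part of this transcript, had 6.54 and 53.9 against 13.7, 1.88 and 4.19 and groups that overlapped, from 6, 70, 12, 2 and 4 reads. As a share of Meg3 in the same library, Rian was 3.47% and 3.73% in the controls and 6.02%, 5.68% and 4.71% in the libraries labelled Zfp292-OE, a higher share in each library labelled Zfp292-OE. Begain and Dio3os were the nearest tested genes on either side that are on neither this list nor a second list of imprinted genes described below. Begain had 762 and 1509 against 272, 553 and 542 (log2 -1.30, limma adjusted p = 0.0693). Dio3os had 138 and 299 against 95.8, 282 and 93.1 (log2 -0.58, limma adjusted p = 0.597). Neither passed. Dio3os is named for Dio3, a gene of that second list, so it may not lie outside the imprinted region.

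Igf2 and H19 lie on chromosome 7 with starts 88.67 kb apart, and share enhancers that a CTCF boundary assigns to one or the other. Igf2 (chromosome 7, 142650768 to 142666816), a paternally expressed fetal growth factor, had 2766 and 6712 in the controls and 933, 1218 and 1231 in the libraries labelled Zfp292-OE. It fell 4.20-fold by the means, with no overlap (log2 fold change -1.94, SE 0.35, limma adjusted p = 0.00563). The controls differed 2.43-fold from each other, and the log2 fold change was -2.58 without control 1 and -1.31 without control 2 (limma adjusted p = 0.0544 and 0.128). H19, the maternally expressed noncoding partner, had 1213 and 3954 in the controls and 1448, 2243 and 1803 in the libraries labelled Zfp292-OE, and its groups overlapped (log2 fold change -0.28, 95% interval -1.23 to 0.67, limma adjusted p = 0.684). Its controls differed 3.26-fold, the higher one being control 2 as for Igf2. The summed mesenchyme markers were also higher in control 2 (13641) than in control 1 (7086), through Fn1 (7404 against 3490) and Pdgfra (5808 against 2643), whereas Col1a1 (144 against 271) and Col3a1 (47.0 against 230.0) were lower there. Their part in the Igf2 and H19 values was not tested. Leaving out control 2 turned the H19 estimate positive, at 0.57 (limma adjusted p = 0.37). As a share of H19 in the same library, Igf2 was 228% and 169.8% in the controls and 64.5%, 54.3% and 68.3% in the libraries labelled Zfp292-OE. In read counts, Igf2 exceeded H19 in both controls and was below it in each library labelled Zfp292-OE. That order depends on gene length, as the merged exons of Igf2 span 5.723 kb and those of H19 2.46 kb. Per kb of exon, Igf2 was below H19 in both controls too (483 against 493, and 1173 against 1607). In the libraries labelled Zfp292-OE it was 163 against 589, 213 against 912 and 215 against 733.

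Igf2r (chromosome 17, 12682406 to 12769706) encodes the receptor that clears IGF2 for degradation. It had 723 and 1469 in the controls and 586, 335 and 453 in the libraries labelled Zfp292-OE, without overlap, and did not pass (log2 fold change -1.21, 95% interval -2.12 to -0.29, limma adjusted p = 0.0708). Its controls also differed 2.03-fold with control 2 higher. Airn, the paternal noncoding RNA that overlaps Igf2r by 28396 bases, had 162 and 114 in the controls and 127, 156 and 68.0 in the libraries labelled Zfp292-OE with overlapping groups (log2 fold change -0.30, 95% interval -1.75 to 1.15, limma adjusted p = 0.784).

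Plagl1 (chromosome 10, 13090832 to 13131694) encodes a paternally expressed zinc finger transcription factor linked to cell cycle arrest and to the regulation of other imprinted genes. It had 14716 and 20363 in the controls and 39309, 34392 and 33261 in the libraries labelled Zfp292-OE. All 3 libraries labelled Zfp292-OE lay above both controls, 2.03-fold by the means (log2 fold change 1.04, SE 0.17, limma adjusted p = 0.00336). The Plagl1 estimate stayed above 0 with either control left out, at 0.80 without control 1 and 1.27 without control 2. The call was lost there, as nearly all calls in the data were. Its nearest tested neighbour Ltv1, a ribosome biogenesis factor, was higher too, with 7233 and 5189 against 10740, 9728 and 11878 (log2 0.81, limma adjusted p = 0.0158).

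Peg3 and Usp29 start 97 bases apart on opposite strands of chromosome 7 and have promoter windows that overlap, as in the Peg3 sequence printed above. Peg3, a paternally expressed zinc finger protein, had 9195 and 11028 in the controls and 12392, 9694 and 10213 in the libraries labelled Zfp292-OE, overlapping (log2 fold change 0.09, 95% interval -0.28 to 0.46, limma adjusted p = 0.749); its sign turned with quantile normalization (-0.10), equal totals (-0.13) and without control 1 (-0.04) or Zfp292-OE 1 (-0.02). Usp29 (chromosome 7, 6730559 to 6967220), a paternally expressed ubiquitin protease, had 1761 and 1101 in the controls and 502, 709.6 and 765 in the libraries labelled Zfp292-OE. It fell 2.17-fold by the means, without overlap (log2 fold change -1.10, SE 0.33, limma adjusted p = 0.0482). As a share of Peg3, Usp29 was 19.2% and 9.98% in the controls and 4.05%, 7.32% and 7.49% in the libraries labelled Zfp292-OE, a lower share in each library labelled Zfp292-OE than in either control. The Usp29 log2 fold change was -0.76 without control 1 and -1.44 without control 2, fits in which this and nearly all other calls were lost. The call was also lost without each library labelled Zfp292-OE in turn, at -0.92, -1.17 and -1.22 (limma adjusted p = 0.12, 0.0646 and 0.055). Zim1, a maternally expressed zinc finger gene of the locus, had 109 and 194 in the controls and 112, 11.3 and 16.7 in the libraries labelled Zfp292-OE, with Zfp292-OE 1 between the controls and the others below both (log2 fold change -2.33, 95% interval -4.73 to 0.06, limma adjusted p = 0.162).

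The Peg10 locus on chromosome 6 held 2 of the 3 genes that rose. Sgce (chromosome 6, 4674350 to 4747204), a paternally expressed sarcoglycan of the cell membrane, had 14865 and 12302 in the controls and 21727, 20461 and 17943 in the libraries labelled Zfp292-OE, without overlap (log2 fold change 0.56, SE 0.15, limma adjusted p = 0.033). For Sgce the estimate was 0.70 without control 1 and 0.43 without control 2, fits in which this and nearly all other calls were lost. Without each library labelled Zfp292-OE the Sgce estimate was 0.50, 0.55 and 0.64 (limma adjusted p = 0.0991, 0.0918 and 0.0351). Among these fits the call held only without library 3. Peg10, a retrotransposon-derived placental gene starting 102 bases from Sgce on the other strand, had 196 and 245 in the controls and 159.7, 166 and 77.4 in the libraries labelled Zfp292-OE. It was lower in every library labelled Zfp292-OE without passing (log2 fold change -0.78, 95% interval -2.10 to 0.54, limma adjusted p = 0.391). As a share of Sgce it was 1.32% and 1.99% in the controls and 0.735%, 0.813% and 0.432% in the libraries labelled Zfp292-OE, lower in that group without overlap. Asb4 (chromosome 6, 5383386 to 5433022), a maternally expressed adaptor of a ubiquitin ligase, had 284 and 380.4 in the controls and 639, 881 and 752 in the libraries labelled Zfp292-OE, 2.28-fold higher by the means (log2 fold change 1.19, SE 0.35, limma adjusted p = 0.0455). The Asb4 call was lost with a replicate block (log2 1.19, limma adjusted p = 0.0729). It was lost without each library labelled Zfp292-OE, at 1.30, 1.07 and 1.19 (limma adjusted p = 0.073, 0.117 and 0.0831). The Asb4 estimate was 0.98 without control 1 and 1.40 without control 2, fits in which this and nearly all other calls were lost. Ppp1r9a, an actin-binding regulator of protein phosphatase between Peg10 and Asb4, had 5458 and 8012 in the controls and 6054, 4759 and 5511 in the libraries labelled Zfp292-OE with overlap (log2 fold change -0.29, 95% interval -0.74 to 0.16, limma adjusted p = 0.356). Relative to Ppp1r9a, Asb4 was 5.21% and 4.75% in the controls and 10.6%, 18.5% and 13.7% in the libraries labelled Zfp292-OE.

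**Figure D3:**
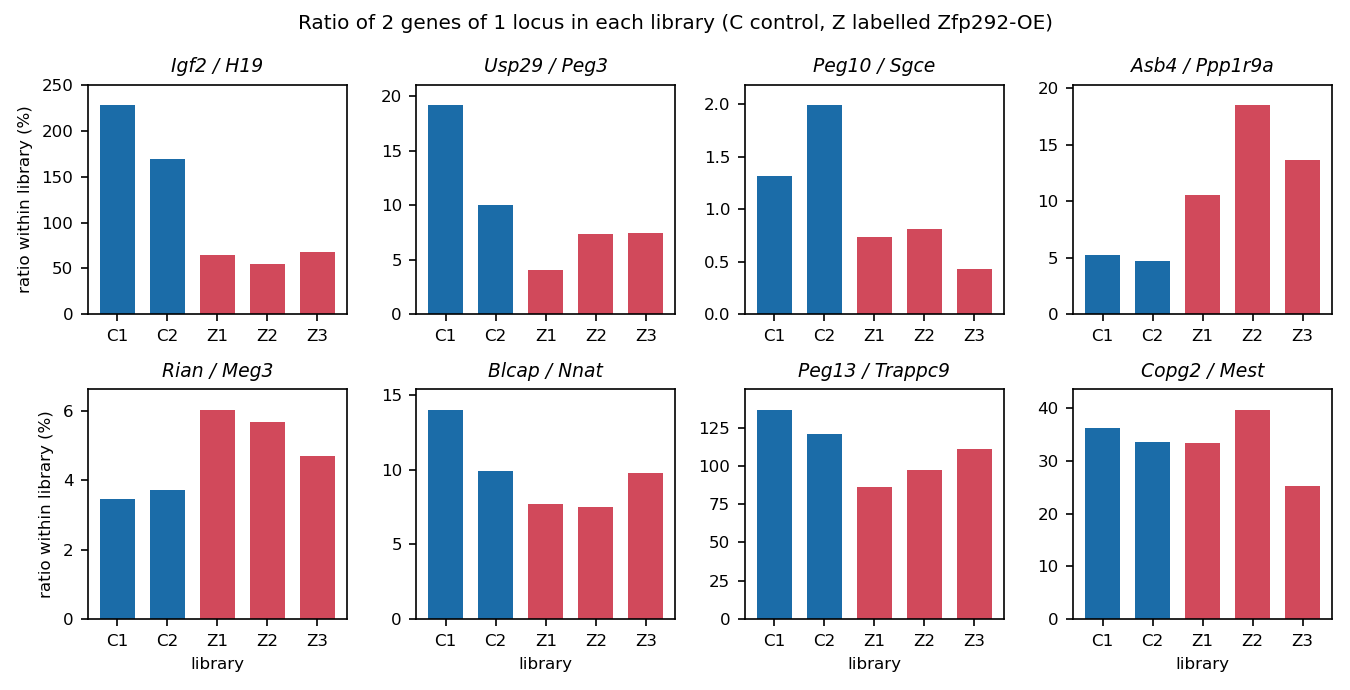
Percent ratio of 2 genes of 1 locus in each library, with bars from 0 (C1 and C2 control, Z1 to Z3 labelled Zfp292-OE). Igf2/H19 and Usp29/Peg3 are lower in every Zfp292-OE library, Asb4/Ppp1r9a and Rian/Meg3 are higher, and Copg2/Mest overlaps.

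Kcnq1ot1 (chromosome 7, 143213111 to 143296547), the paternally expressed RNA that silences its neighbours, had 4091 and 6115 in the controls and 3022, 2581 and 3314 in the libraries labelled Zfp292-OE, without overlap (log2 fold change -0.76, SE 0.22, limma adjusted p = 0.0418). The Kcnq1ot1 estimate was -1.05 without control 1 and -0.47 without control 2, fits in which this and nearly all other calls were lost. The call was also lost without each library labelled Zfp292-OE, at -0.77, -0.66 and -0.84 (limma adjusted p = 0.0908, 0.106 and 0.0524). Genes of a second list of imprinted genes described below, such as Cdkn1c, were not placed at loci, so the loci here do not cover every imprinted gene of their region. The 3 other genes listed here for the locus were near the detection limit. Kcnq1, a potassium channel, had 0 and 5 reads in the controls and 0, 0 and 10 in the rest, and did not enter the test. Phlda2, a growth-restraining placental gene, had 0 and 0 reads against 62, 0 and 4, so its level rests on 1 library. Slc22a18, a transporter, had 29 and 0 reads against 0, 0 and 22. Zero reads allow up to 3 reads (the counting limit used here, for counting error only).

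Peg13 (chromosome 15, 72805602 to 72810324), a paternally expressed noncoding RNA lying wholly inside Trappc9, had 4190 and 4325 in the controls and 1862, 2496 and 2280 in the libraries labelled Zfp292-OE, without overlap (log2 fold change -0.95, SE 0.20, limma adjusted p = 0.0124). The estimate was -0.98 without control 1 and -0.93 without control 2 (limma adjusted p = 0.0914 and 0.152). Trappc9, a vesicle trafficking gene, had 3073 and 3585 in the controls and 2154, 2569 and 2058 in the libraries labelled Zfp292-OE, also without overlap (log2 fold change -0.56, 95% interval -1.02 to -0.10, limma adjusted p = 0.0874). Both genes lie on the minus strand, so strand could not separate reads of Peg13 from those of unspliced Trappc9. Relative to Trappc9, Peg13 was 136% and 121% in the controls and 86.4%, 97.2% and 111% in the libraries labelled Zfp292-OE, lower in each library labelled Zfp292-OE.

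At the other loci no gene passed. Mest, an enzyme of the hydrolase family, had 20413 and 12502 in the controls and 13006, 15060 and 24457 in the libraries labelled Zfp292-OE (log2 fold change 0.08, 95% interval -0.54 to 0.69, limma adjusted p = 0.874). Copg2, a coat protein gene overlapping the end of Mest by 913 bases, had 7382 and 4187 in the controls and 4335, 5962 and 6182 in the libraries labelled Zfp292-OE (log2 fold change -0.03, 95% interval -0.61 to 0.54, limma adjusted p = 0.942). Control 1 was the higher control for both, and both genes overlapped between groups. As a share of Mest, Copg2 was 36.2% and 33.5% in the controls and 33.3%, 39.6% and 25.3% in the libraries labelled Zfp292-OE, overlapping too. Grb10, an adaptor that dampens insulin signalling, had 10976 and 16546 in the controls and 21243, 17406 and 17027 in the libraries labelled Zfp292-OE, and its groups did not overlap (log2 fold change 0.45, 95% interval 0.02 to 0.88, limma adjusted p = 0.133). Ddc, an enzyme of dopamine and serotonin synthesis, had 220.2 and 141 in the controls and 193, 265 and 269 in the libraries labelled Zfp292-OE, overlapping (log2 fold change 0.44, 95% interval -0.68 to 1.57, limma adjusted p = 0.581).

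In the region of chromosome 7 that matches the human Prader-Willi and Angelman region, Ndn, a growth-suppressing neuronal protein of the MAGE family, had 43783 and 38106 in the controls and 40681, 45938 and 43490 in the libraries labelled Zfp292-OE (log2 fold change 0.08, 95% interval -0.22 to 0.39, limma adjusted p = 0.702). Snrpn, a splicing protein gene, had 903 and 533 in the controls and 295, 333 and 265 in the libraries labelled Zfp292-OE without overlap (log2 fold change -1.22, 95% interval -2.12 to -0.33, limma adjusted p = 0.0633). By position Snrpn overlaps Snurf and Snhg14, and how the counting split reads between them is not given. Snurf had 21.8 and 15.4 against 16.0, 19.7 and 14.6 (log2 -0.13). The other genes of the region overlapped between groups: Magel2 had 78.5 and 106 against 132, 86.5 and 43.9, Mkrn3 1517 and 953 against 858, 948 and 998 and Ube3a, a ubiquitin ligase, 14314 and 17001 against 15394, 11766 and 13838. Their log2 fold changes were -0.20 (-1.88 to 1.48), -0.37 (-1.03 to 0.29) and -0.20 (-0.56 to 0.16), with 95% intervals in parentheses.

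Nnat, a small membrane protein of neural cells, had 208191 and 207786 in the controls and 210490, 242731 and 189989 in the libraries labelled Zfp292-OE, overlapping (log2 fold change 0.04, 95% interval -0.30 to 0.38, limma adjusted p = 0.893). Its host gene Blcap had 29088 and 20546 in the controls and 16220, 18224 and 18521 in the libraries labelled Zfp292-OE, without overlap (log2 fold change -0.47, 95% interval -0.85 to -0.09, limma adjusted p = 0.0843). Gnas, a G protein subunit of a complex locus, had 75632 and 72110 in the controls and 85675, 96759 and 93058 in the libraries labelled Zfp292-OE, without overlap (log2 fold change 0.31, 95% interval 0.02 to 0.61, limma adjusted p = 0.132). Impact, a translation regulator, had 4864 and 4153 in the controls and 3226, 2819 and 3902 in the libraries labelled Zfp292-OE, without overlap (log2 fold change -0.45, 95% interval -0.90 to -0.0040, limma adjusted p = 0.149).

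Nap1l5, Inpp5f, Zdbf2 and Slc38a4 are each the only listed gene of their locus. By position, Nap1l5 overlaps Herc3 and Zdbf2 overlaps Gpr1, which are not on the list. Nap1l5, a nucleosome assembly protein, had 6112 and 3523 against 3711, 3293 and 2839, log2 -0.51 (-1.06 to 0.04). Inpp5f, an inositol phosphatase, had 6078 and 5549 against 4465, 4731 and 5043, log2 -0.29 (-0.66 to 0.07), without overlap. Zdbf2 had 3112 and 3072 against 2950, 2870 and 3196, log2 -0.04 (-0.45 to 0.36), with almost level libraries. Slc38a4, an amino acid transporter, had 15.3 and 87.8 against 76.4, 1.88 and 1.05, from 14, 114, 67, 2 and 1 reads, with overlap.

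Levels per kb of exon (normalised read count divided by the length of the gene's merged exons in GENCODE M21) ranked Nnat first at 115821 over all libraries, followed by Ndn at 11478, Gnas at 7567 and Blcap at 6743. Mest stood at 4332 and Plagl1 at 3633. Plagl1 was 2243 per kb in the controls and 4560 in the libraries labelled Zfp292-OE. The lowest were Rtl1 at 2.52 and Kcnq1 at 0.699.

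A measure that does not use the difference between the groups is the spread of a gene within them. Ranked among the 500 tested genes nearest in level, the residual SD of Mest was at percentile 99.2, H19 at 98.6, Igf2 at 97.0 and Copg2 at 96.0. At the other end, Zdbf2 was at percentile 1.40, Mirg at 4.99, Rian at 8.38 and Inpp5f at 9.38. Ranks were close within pairs such as Igf2 and H19, Mest and Copg2, and Peg13 (27.5) and Trappc9 (27.1). They were far apart at some other loci: Meg3 at 44.1 and Dlk1 at 75.4 beside Rian and Mirg, Igf2r at 80.6 and Airn at 31.5, and Grb10 at 88.0 and Ddc at 20.2. Among the controls, control 2 exceeded control 1 by 3.26-fold for H19, 2.43-fold for Igf2 and 2.03-fold for Igf2r, and fell below it for Mest (0.612) and Copg2 (0.567).

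**Figure D4:**
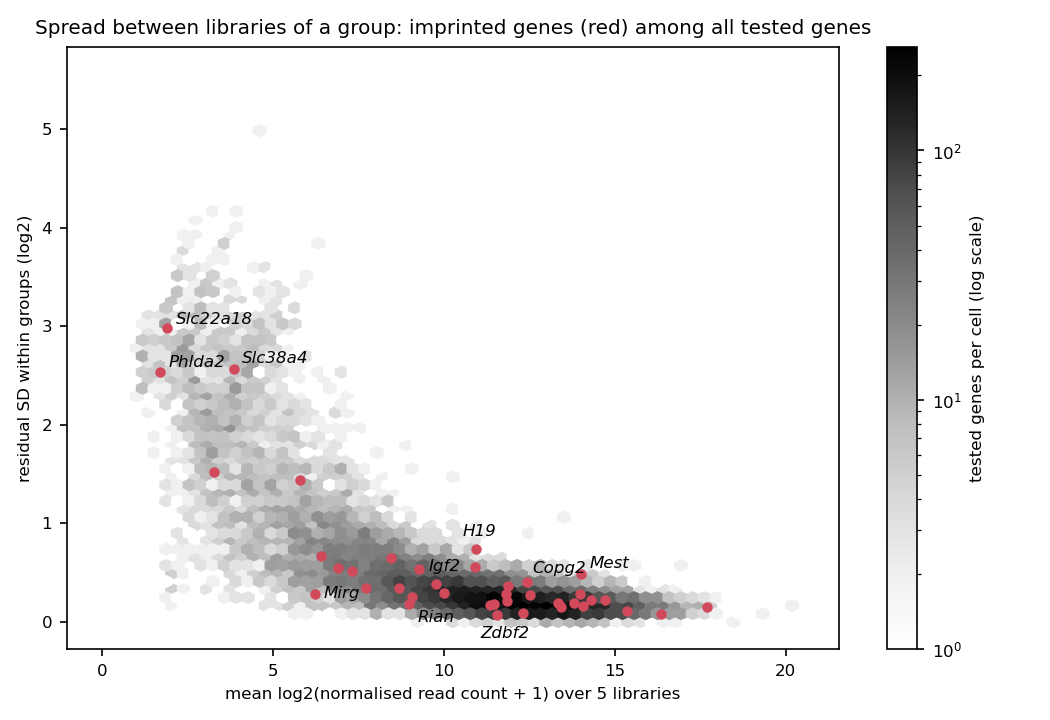
Residual SD within groups (log2) against mean log2 level for all tested genes (grey) and the imprinted genes (red). Mest, Copg2, H19 and Igf2 lie above most genes of their level, and Zdbf2, Mirg and Rian below.

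The list of other imprinted genes (44 listed, 32 tested) had 0 higher and 2 lower (6.25%) by limma, beside 10% and 7.38% of all tested genes. Its median log2 fold change was -0.09. At an unadjusted p below 0.05 limma had 4 higher and 5 lower, while edgeR called 0 and 3 and DESeq2 3 and 3. Rasgrf1, a paternally expressed exchange factor, had 1113 and 700.1 against 155, 51.7 and 108 (log2 -3.20, limma adjusted p = 0.00595). Cdkn1c, a maternally expressed inhibitor of cyclin-dependent kinases, had 11385 and 13813 against 6062, 7353 and 7479 (log2 -0.85, limma adjusted p = 0.00847). Genes that set, keep or read imprints (32 listed, 29 tested) had 8 higher and 3 lower by limma, beside 10% and 7.38% of all tested genes, with a median of 0.11. DESeq2 called 9 higher and edgeR 5, and both called 3 lower. The higher ones with the smallest p were Hells (log2 2.02), a chromatin remodeller needed for DNA methylation, Eed (1.24) and Ezh2 (0.98), Polycomb subunits, and Uhrf1 (1.96), which brings DNMT1 to newly copied DNA. The lower ones were Tet3 (-0.64), Tet2 (-0.90) and Dnmt3a (-0.72). Zfp57 (-0.26), Trim28 (0.11) and Dnmt1 (0.34) did not pass. The 12 proliferation markers rose in the same libraries, and their part in these changes was not tested. For each locus, the neighbours were the nearest tested genes on either side that are on neither imprinted list. Among the 36 such neighbours, 2 were higher and 2 lower, beside 10% and 7.38% of all tested genes, with a median of 0.12. Fignl1 beside Ddc, a DNA repair factor, had the largest change among the 4 called (log2 3.12, limma adjusted p = 0.000252).

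**Figure D5:**
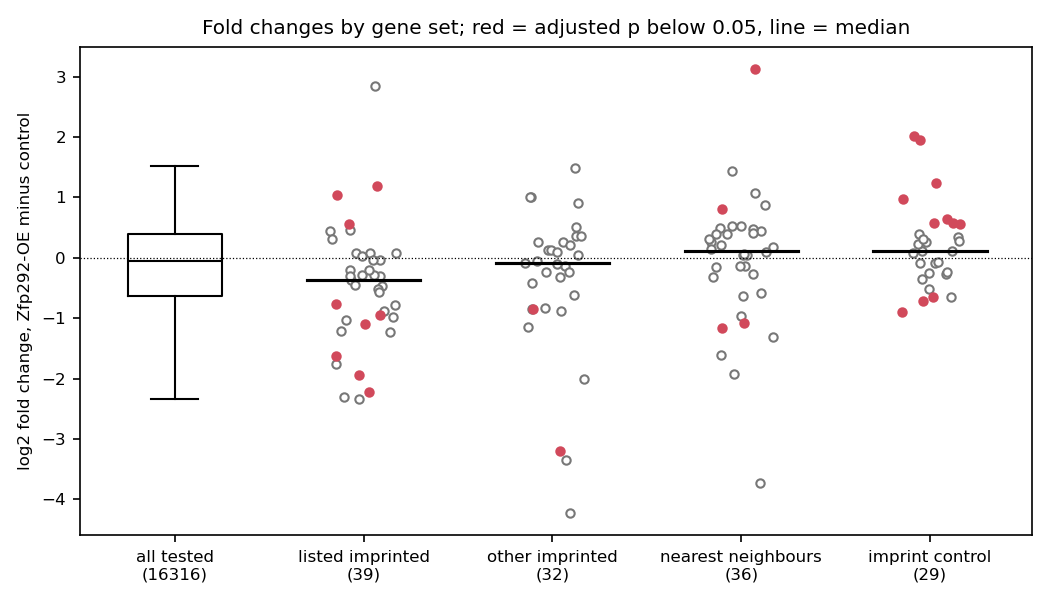
Log2 fold change of all tested genes (box with median, whiskers at percentiles 5 and 95) and of 4 gene sets (points, red for an adjusted p below 0.05, line at the median). The medians are -0.06 for all genes, -0.37 for the imprinted genes, -0.09 for the other imprinted genes, 0.12 for the neighbours and 0.11 for imprint control genes.

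Some lists of cell type markers differed between the groups and others did not. The counts of calls below stand beside 10% higher and 7.38% lower among all tested genes. All 12 proliferation genes rose, with summed values of 53652 to 60319 in the controls and 208292 to 403303 in the libraries labelled Zfp292-OE, and all 12 rod genes fell, from 724210 to 853361 to between 181285 and 213393. Of the 12 bipolar genes 9 fell (sums 207401 to 238627 against 151785 to 237442, most of it Otx2, which rods express too and which did not pass, at 156329 and 110863 against 117569, 134300 and 203715), of the 12 Muller glia genes 6 fell and 1 rose (854801 to 1002643 against 480461 to 599858), and of the 8 tested mural genes 4 fell (2096 to 3600 against 722 to 944). Amacrine and horizontal cell markers had 2 of 12 lower (59253 to 59673 against 40459 to 53541) and ganglion cell markers 2 of 12 lower (23448 to 25907 against 23359 to 29834). For cells from outside the neural retina, mesenchyme had 1 of 7 lower (7086 to 13641 against 7532 to 8911), endothelium 2 of 8 higher, Cldn5 and Egfl7 (42783 to 51238 against 39531 to 47726, most of it Kdr at 31624 to 48368, with Cdh5 and Tie1 at 0 to 3.76 and Pecam1 at 27.3 to 105), muscle 3 of 9 higher (5526 to 5556 against 8610 to 9801) and lens 1 of 6 lower (2067 to 2940 against 1490 to 1742). Microglia had 0 of 10 called (5050 to 13173 against 3062 to 8038), pigment epithelium 0 of 8 (3239 to 4347 against 3260 to 4262) and red blood cells 0 of 4 (448 to 790 against 484 to 1266). In these 3 lists 1, 1 and 0 markers had an unadjusted limma p below 0.05, edgeR called 0, 0 and 0, and DESeq2 0, 1 and 0. Other tools differed most for mesenchyme (2 lower by edgeR, 3 by DESeq2), amacrine and horizontal cells (4 lower by DESeq2) and muscle (2 higher and 1 lower by edgeR, 4 and 1 by DESeq2). Median log2 fold changes of the tested markers were 2.38 for proliferation, -1.99 for rods, -3.68 for bipolar cells, -0.28 for amacrine and horizontal cells, -0.04 for ganglion cells and -0.75 for Muller glia. They were -4.16 for mural cells, -2.28 for mesenchyme, 0.12 for endothelium, -0.45 for muscle (against its higher sum and calls), -0.44 for lens, -1.65 for microglia, 1.08 for pigment epithelium and 0.46 for red blood cells. Only Lim2 of the lens list was at 0 in every library. Control 2 had the highest mesenchyme and microglia sums, and the highest Igf2, H19 and Igf2r values. Its mesenchyme sum was high through Fn1 and Pdgfra, while Col1a1 and Col3a1 were lower than in the other control. The part of these cell types in the imprinted gene values was not tested. In such bulk samples, fewer cells of a type and less RNA per cell cannot be told apart.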

How the data were processed

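Messenger RNA of 5 libraries (2 control, 3 labelled Zfp292-OE) was analysed from 1 deposited table of 24594 genes. It holds a deposited normalised signal: the authors scaled each library's read counts by a single factor, since 100% of values are whole multiples of what 1 read is worth (tolerance 1e-06 of a read). The submitters' processing notes list GRCm38 and mm10. Which aligner, counter, annotation, strand setting and scaling were used is not given in the sources used here. Total RNA (1.3 µg) went into a SMARTER messenger RNA kit, per the labels' protocols.

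Because the values are normalised, the main result came from limma (version 3.58.1 in R 4.3.3, with an intensity trend) fitted to log2(value + 1), for 16316 genes with a mean of at least 10, with Benjamini-Hochberg adjustment over all of them and a threshold of 0.05. Fold changes on this scale are differences of mean logs, and for low or uneven genes they can lie above or below the ratio of the means. edgeR 4.0.16 and DESeq2 1.42.0 on recovered whole reads were alternatives. The scripts were tested on simulated data. All 40 genes are described, and other lists name at most 4 genes per direction by smallest p. Zfp57, Trim28 and Dnmt1, the neighbours named and the within-locus ratios were picked after their values were seen. The members and lists were chosen with earlier results of these data known. Coordinates come from RefSeq GRCm38.p6 and exon lengths from GENCODE M21. Sums, ratios and figures were made in Python 3.11.15 with pandas 2.3.3 and matplotlib 3.10.9. Intervals cover 95%. Limits for genes at 0 reads reflect counting error alone, as reads carry no molecular identifiers.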

Additional observations from a re-analysis of the deposited data

How the results depend on the processing

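Under the 15 alternatives no imprinted gene that had passed changed sign. All genes called numbered 2836, and 1 to 2352 when 1 library was left out: 1 without control 1, 1 without control 2, and 1657 without Zfp292-OE 1 (4390, 3534 and 4661 at an unadjusted p below 0.05). With 1 control left, it is assumed to vary like the other group. Imprinted genes called higher in these fits numbered 0 to 2, and lower 0 to 4. With equal totals per library 1 was higher and 11 were lower, and the median of all genes moved from -0.06 to -0.27 and the share of calls that were higher from 57.5% to 31.5%. DESeq2 gave 3 higher and 11 lower of 4147 calls, and edgeR 2 and 7 of 2621. With a replicate block the calls were 2498, with 2 imprinted genes higher and 6 lower; Zfp292-OE 3 then has a term of its own, and the labels do not say that numbers pair libraries (correlations of deviations -0.04 and -0.03 for numbers 1 and 2). Meg3, Dlk1, Igf2, Plagl1 and Peg13 kept their calls in 13 of 15 alternatives, Kcnq1ot1 in 9, Sgce and Usp29 in 8 and Asb4 in 6. Sgce also lost its call with equal totals (log2 0.35), quantile normalization (0.30) and edgeR (0.53), and Asb4 with equal totals (0.97), TMM scaling (1.16), the replicate block (1.19) and no filter (1.19). Usp29 lost it with no filter (-1.10) and quantile normalization (-0.90), and Kcnq1ot1 with no filter (-0.76). Snrpn, Blcap, Igf2r, Rian and Trappc9 passed with equal totals and with DESeq2. The sign of 8 uncalled genes changed in at least 1 alternative: H19, Airn, Peg3, Mest, Copg2, Ndn, Magel2 and Nnat. The causes were not tested.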
